A study of Mus musculus with 8 samples.

Results

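The genes described here are 10 components of the circadian clock, out of 20284 named genes on the array. They are Arntl, Clock and Npas2, which encode activators; Per1, Per2, Per3, Nr1d1 and Nr1d2, which encode repressors; and Dbp and Tef, which encode transcription factors of the clock's output. The members were the array probes whose accession maps to these symbols, and 11 probes did so: 2 for Dbp and 1 for each of the other 9 genes. They were measured in liver RNA of 4 samples, each hybridised to 2 single-colour arrays. The knockout (KO) adult sample came from male mice of 10 weeks lacking TIS21, the gene also called Btg2 or PC3, after a fast of 20 h. The wild-type (WT) adult sample came from males of the same age and fast. The KO fetal and WT fetal samples were pools of livers of both sexes from embryonic day 13.5. Each fetal pool held more than 3 fetuses of a single womb, per the labels' protocols. The mice were C57BL/6J per the series title. The fast ran from 17:00 to 13:00 the next day for both adult genotypes, and fed adults were not analysed here. The sources used here do not give the light schedule, the clock time at which fetal livers were taken, or the number of adult mice per sample.

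The design text of the series states that the 2 arrays of a group were technical duplicates. Each group is therefore 1 RNA sample, and every p-value and standard error (SE) below measures the error between arrays, not between animals. All 8 arrays lay on 1 slide. Over the 28819 probes tested, the r between duplicates lay between 0.990 and 0.996. Adult arrays had 38.5% to 42.3% of probes well above background, and fetal arrays had 48.7% to 61.1%. Btg2 was well above background on all 4 WT arrays and on none of the 4 KO arrays (at least 7.63-fold lower in KO adult and at least 101-fold lower in KO fetal liver). The sources used here do not say which part of the gene was removed. All 8 hepatocyte markers tested were higher in adult than in fetal liver of both genotypes and all 6 erythroid markers tested were lower. In bulk samples, fewer cells of a type and less RNA per cell cannot be told apart.

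In the mouse clock, the proteins of Arntl (also called Bmal1) and Clock, or of its relative Npas2, pair up and switch on genes that carry an E-box. Their targets include the Per and Cry genes, whose proteins return to the nucleus and block the pair. The targets also include Nr1d1 and Nr1d2 (Rev-erb alpha and beta), which repress Arntl through the ROR element. In liver the loop drives genes of metabolism through the factors Dbp, Tef and Hlf, which bind the D-box. The RNA of Arntl is known to peak at a time of day opposite to that of Nr1d1, Dbp and the Per genes.

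The start regions of the members show where these 3 kinds of element lie. RefSeq's table for build GRCm38.p6 held 14 windows for 9 of the 10 members, each of 250 bases before and 50 after an annotated start, and none for Per2. They were searched on both strands for CACGTG (E-box), CACGTT (the variant called the E'-box here), TTATGTAA or TTATGCAA (D-box) and TAGGTCA or TGGGTCA (ROR element). Of the windows that held a match, 4 are printed, chosen so that each of the motifs is shown at least once. Capitals mark the matches, and each sequence runs 5′ to 3′ along the gene's strand.
Per1 (chr11:69098699-69098998, plus strand): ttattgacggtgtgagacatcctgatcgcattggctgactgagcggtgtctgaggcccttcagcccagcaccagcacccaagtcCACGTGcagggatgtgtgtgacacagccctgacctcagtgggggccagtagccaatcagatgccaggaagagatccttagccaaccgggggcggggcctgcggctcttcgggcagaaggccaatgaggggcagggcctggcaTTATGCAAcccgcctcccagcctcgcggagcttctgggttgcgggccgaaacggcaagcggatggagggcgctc
Per3 (chr4:151044616-151044915, minus strand): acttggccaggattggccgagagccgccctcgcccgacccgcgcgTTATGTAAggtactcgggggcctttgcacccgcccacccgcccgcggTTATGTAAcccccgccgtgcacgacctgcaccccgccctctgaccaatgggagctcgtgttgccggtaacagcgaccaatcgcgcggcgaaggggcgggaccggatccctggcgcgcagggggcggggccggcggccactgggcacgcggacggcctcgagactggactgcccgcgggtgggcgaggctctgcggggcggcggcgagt
Nr1d1 (chr11:98775328-98775627, minus strand): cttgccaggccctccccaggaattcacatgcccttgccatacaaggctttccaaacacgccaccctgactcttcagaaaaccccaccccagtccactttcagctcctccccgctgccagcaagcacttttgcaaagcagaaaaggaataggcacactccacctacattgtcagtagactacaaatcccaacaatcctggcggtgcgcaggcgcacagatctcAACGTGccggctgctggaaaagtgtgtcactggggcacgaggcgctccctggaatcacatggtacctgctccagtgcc
Arntl (chr7:113207261-113207560, plus strand): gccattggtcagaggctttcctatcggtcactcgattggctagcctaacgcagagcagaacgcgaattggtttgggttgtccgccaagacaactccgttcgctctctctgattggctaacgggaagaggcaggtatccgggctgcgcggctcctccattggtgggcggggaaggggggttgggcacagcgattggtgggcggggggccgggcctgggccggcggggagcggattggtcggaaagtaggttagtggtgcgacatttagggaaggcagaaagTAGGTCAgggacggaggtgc

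The Per1 window held an E-box at position -166 and a D-box at -24, counted from the annotated start to the first base of the match. The Per3 window held D-boxes at -205 and -158. The Nr1d1 window held an E'-box at -28, and that of Arntl a ROR element at 31 bases into the transcript. Both windows of Tef held an E-box, at -127 and -138, and the windows of Clock, Npas2, Nr1d2 and Dbp, the other window of Per1 and the other window of Arntl held none of these letters. Of 32851 windows in the table, 7.15% held the E-box, 4.68% the E'-box, 1.66% the D-box and 6.45% the ROR element. A match is a run of letters and was not tested as a binding site.

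Levels are given as log2 of the processed signal after subtracting the array's 75th percentile, so that 0 is the signal of a probe at that percentile. A level can be compared between samples for 1 probe, not between probes. Testing required a signal well above background on both arrays in 1 group or more, and 9 of the 10 genes and 10 of the 11 probes met this. Npas2 was not well above background on any of the 8 arrays, with processed signals of 4.53 to 12.2, and is not described further. A difference was called if its adjusted p in limma, after Benjamini-Hochberg adjustment over all 28819 probes, was under 0.05 and its size 2-fold or more. All differences below are on the log2 scale, each with the SE that limma gave.

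**Figure D1:**
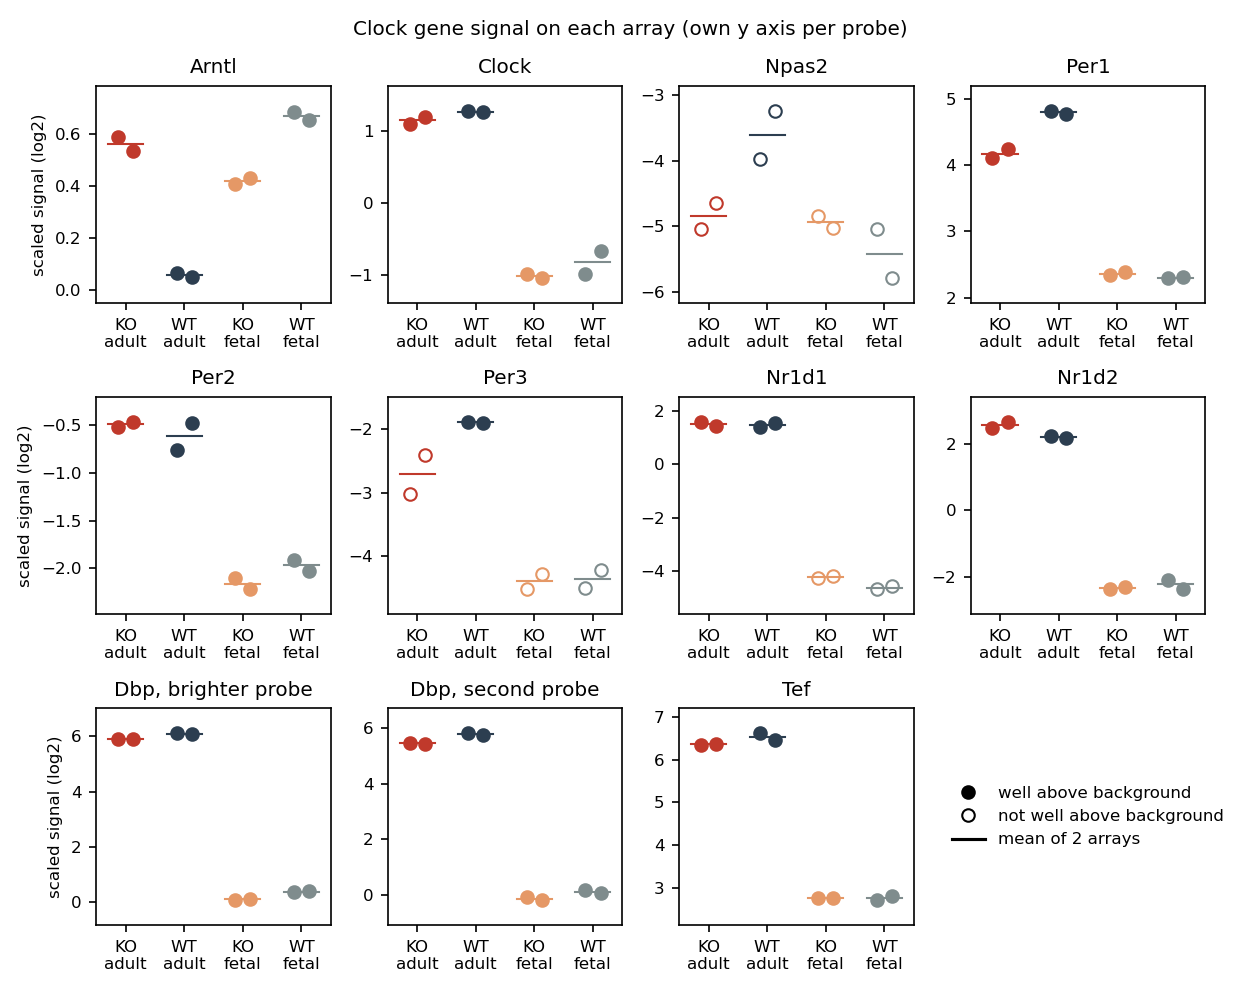
Scaled signal (log2, y axis) of each of the 11 clock gene probes on the 8 arrays, by group (x axis); each panel has its own y axis, filled points were well above background, open points were not, and lines are means of 2 arrays. Every probe but those of Arntl and Npas2 sits higher on the 4 adult than on the 4 fetal arrays, while KO and WT lie close together for most probes.

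The first comparison asked how the clock genes differed between Btg2 KO and WT liver of fasted adults. No clock gene was called between these samples. Of the 10 clock gene probes, 0 were called in limma, where 6.95% of all probes were (3.92% higher and 3.04% lower in KO), and the 95% intervals of 9 lay wholly within 2-fold. The probe with the wider interval was that of Per3. Smaller differences passed the adjusted p for 7 of the 10 probes (also 7 at an unadjusted p under 0.05), 2 higher and 5 lower in KO. Of all probes, 46.0% did so, so little can be read from the count. The 5 lower probes include that of Per3, which entered the test through the WT adult arrays alone. Per1 and Arntl had the lowest adjusted p. Without the second KO adult array, Per3 was called.

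Arntl, the activator, had levels of 0.59 and 0.54 on the KO adult arrays, against 0.07 and 0.05 on the WT adult arrays. Both KO arrays lay above both WT arrays, and the difference was 0.51 ± 0.06 (1.42-fold; adjusted p = 0.00027, limma). Clock, its partner, had levels of 1.10 and 1.20 on the KO adult arrays, against 1.28 and 1.26 on the WT adult arrays. Its difference of -0.12 ± 0.11 (adjusted p = 0.41, limma) was the same as the median of all probes tested, -0.12. Relative to that median Arntl differed by 0.63, and this relative difference was 0.49 to 0.73 under the 19 alternative settings of processing.

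The Per genes encode proteins that block the activator pair. Per1 levels were 4.11 and 4.24 on the KO adult arrays, against 4.81 and 4.77 on the WT adult arrays. Both KO arrays lay below both WT arrays, by 0.62 ± 0.05 (1.54-fold; adjusted p = 4.7e-05, limma) or by 0.50 relative to the median of all probes. Per2 levels were -0.51 and -0.46 on the KO adult arrays, against -0.76 and -0.47 on the WT adult arrays, and the ranges overlapped. The Per2 difference was 0.12 ± 0.14, with a 95% interval of -0.19 to 0.44. Per3 was well above background on both WT adult arrays, at -1.89 and -1.90, and on neither KO adult array. Against the lowest signal well above background on each KO adult array, Per3 was at least 1.54-fold lower in KO (adjusted p = 0.045, limma). Per3 entered the test through the WT adult arrays alone, so a lower level in KO was the one direction it could take. The adjusted p of Per3 was under 0.05 in 5 of 18 alternative settings and reached 0.41, and with 1 array left out its difference ran from -1.12 to -0.52.

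The Rev-erb repressors came next. Nr1d1 levels were 1.59 and 1.44 on the KO adult arrays, against 1.41 and 1.54 on the WT adult arrays, and the ranges overlapped (0.04 ± 0.12, 95% interval -0.26 to 0.33). Nr1d2 levels were 2.50 and 2.67 on the KO adult arrays, against 2.23 and 2.18 on the WT adult arrays. Both KO arrays were the higher ones for Nr1d2, by 0.38 ± 0.11 (adjusted p = 0.022, limma).

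The output factors Dbp and Tef were slightly lower in KO before the median is taken into account. Dbp levels on its brighter probe were 5.90 and 5.91 on the KO adult arrays, against 6.11 and 6.07 on the WT adult arrays. That difference was -0.19 ± 0.03 (adjusted p = 0.0022, limma), or -0.07 relative to the median of all probes. The second Dbp probe gave -0.34 ± 0.05, in the same direction. Tef levels were 6.36 and 6.36 on the KO adult arrays, against 6.63 and 6.46 on the WT adult arrays, a difference of -0.18 ± 0.06 (adjusted p = 0.037, limma) or -0.06 relative to the median. Relative to the median, the values of Tef and of the brighter Dbp probe thus came close to 0. With each array scaled to its median, they became 0.019 for Tef and 0.0099 for the brighter Dbp probe. The second Dbp probe stayed lower in KO, at -0.21 relative to the median of all probes. Over 18 alternative settings its relative difference was -0.25 to -0.10.

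Other contents of the adult samples differed between the genotypes in ways that accompany these values. All 8 macrophage and Kupffer cell markers tested were called higher in KO adult liver, and their summed level was 7.95 and 8.04 on the KO arrays, against 5.35 and 5.27 on the WT arrays. Of the 4 intestinal epithelium markers tested, 2 were called higher and 2 lower, with summed levels of 6.77 and 6.80 on the KO arrays, against 8.18 and 8.15 on the WT arrays. Of all probes, 3.92% were called higher and 3.04% lower in KO, and 15030 of 28819 had an unadjusted p under 0.05. The 8 hepatocyte markers had 0 calls in limma (5 at an unadjusted p under 0.05) and a median difference of -0.19. The 6 erythroid markers also had 0 calls (5 at an unadjusted p under 0.05), but 4 were higher and 1 lower in KO at an adjusted p under 0.05, with a median of 0.34, against -0.12 for all probes. The part of these contents in the clock gene values was not tested.

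**Figure D2:**
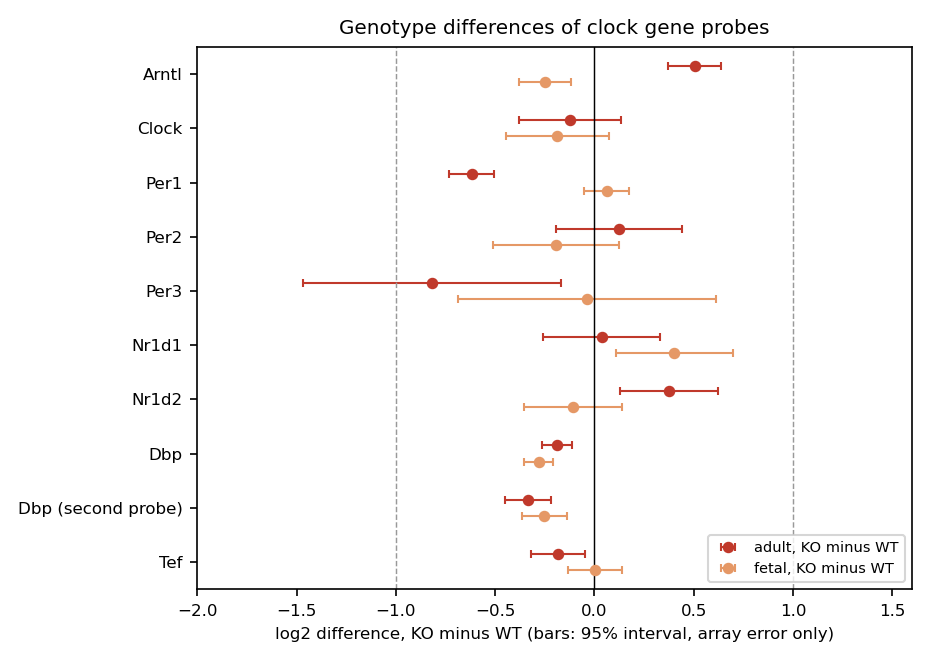
Log2 difference, KO minus WT (x axis), of the 10 tested clock gene probes (y axis) in adult liver and in fetal liver; bars are 95% intervals from limma that cover array error only, and dashed lines mark 2-fold. No point passes the 2-fold lines, and in adult liver Arntl lies at 0.51 and Per1 at -0.62. The fetal signals of Nr1d1 and Per3, and the KO adult signals of Per3, were not well above background.

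In the fetal pools, too, no clock gene was called between KO and WT. Of the 10 clock gene probes, 0 were called in limma, where 1.53% of all probes were (0.486% higher and 1.04% lower in KO), and all 10 intervals of 95% lay within 2-fold. The intervals of Nr1d1 and Per3 compare fetal signals that were not well above background, so they do not bound a difference in RNA. The adjusted p was under 0.05 for 3 probes, all lower in KO, where it was for 14.0% of all probes (4 of the 10 at an unadjusted p under 0.05). They were those of Arntl and the 2 of Dbp.

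Arntl levels were 0.41 and 0.43 on the KO fetal arrays, against 0.69 and 0.65 on the WT fetal arrays. The KO pool was thus the lower one, by 0.25 ± 0.06 (adjusted p = 0.029, limma), whereas in adult liver the KO sample was the higher one. Dbp levels on the brighter probe were 0.08 and 0.12 on the KO fetal arrays, against 0.38 and 0.39 on the WT fetal arrays, a difference of -0.28 ± 0.03 (adjusted p = 0.0028, limma). The second Dbp probe gave -0.25 ± 0.05.

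Per1, which was lower in the adult KO sample, had levels of 2.34 and 2.39 on the KO fetal arrays, against 2.30 and 2.31 on the WT fetal arrays. This difference was 0.06 ± 0.05, with a 95% interval of -0.05 to 0.17. Tef differed by 0.00 ± 0.06, Nr1d2 by -0.11 ± 0.11, Per2 by -0.19 ± 0.14 and Clock by -0.19 ± 0.11, all with adjusted p above 0.05. Nr1d1 and Per3 were not well above background on any fetal array, so no size is given for them.

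Whether the genotype difference itself differed between adult and fetal liver was tested as an interaction. Of the 10 probes 0 were called in limma, where 9.55% of all probes were (5.08% positive and 4.47% negative). The adjusted p was under 0.05 for 3 of the 10 (3 also at an unadjusted p under 0.05) and for 42.4% of all probes. The KO minus WT difference of Arntl was larger in adult than in fetal liver by 0.76 ± 0.08 (adjusted p = 0.00028, limma). That of Per1 was lower in adult liver, the interaction being -0.68 ± 0.07 (adjusted p = 0.00022, limma). That of Nr1d2 was higher by 0.49 ± 0.15 (adjusted p = 0.034, limma). The Nr1d2 interaction kept an adjusted p under 0.05 in 9 of 18 alternative settings, against 17 of 18 for both Arntl and Per1.

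The stage comparison asked how the clock genes differed between fasted adult liver and fetal liver. Most were far higher in the adult samples, and Arntl was not. In KO liver 9 of the 10 probes were called higher, where 24.6% of all probes were called higher, 24.9% lower and 49.6% in either direction. In WT liver 9 of the 10 were also called higher, where 28.4% of all probes were called higher, 24.1% lower and 52.5% in either direction. All 10 had an adjusted p under 0.05 in each genotype, as 80.1% of all probes had in KO and 82.1% in WT. Nr1d1 and Per3 entered the test through adult arrays alone, so a rise was the one direction they could take. Per3 was well above background on no KO array of either stage, so its call in KO rests on signals that were not detected, and without it 8 of the other 9 probes were called higher in KO. Of the 7 genes well above background on all 8 arrays, 6 were called higher in both genotypes. Stage here also stands for fasting, sex and possibly time of day, which cannot be told apart from it. The stage and genotype comparisons share samples.

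Dbp, the output factor, had the largest log2 difference among the 7 members whose probes cleared background on every array. Its levels on the brighter probe were 5.90 and 5.91 on the KO adult arrays, against 0.08 and 0.12 on the KO fetal arrays, a rise of 5.80 ± 0.03 (55.6-fold; adjusted p = 1e-11, limma). In WT liver the levels were 6.11 and 6.07 on the adult arrays, against 0.38 and 0.39 on the fetal arrays, a rise of 5.71 ± 0.03 (52.2-fold). The second probe gave rises close to these, of 5.61 ± 0.05 in KO and 5.69 ± 0.05 in WT. Tef, the related factor, had levels of 6.36 and 6.36 on the KO adult arrays, against 2.75 and 2.77 on the KO fetal arrays, a rise of 3.60 ± 0.06 (12.1-fold). In WT liver Tef had levels of 6.63 and 6.46 on the adult arrays, against 2.71 and 2.80 on the fetal arrays, a rise of 3.78 ± 0.06 (13.8-fold). For both genes the adult and fetal arrays lay far apart in either genotype.

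Both Rev-erb genes rose strongly. The Nr1d1 probe was well above background on the 4 adult arrays and on no fetal array. Nr1d1 was at least 39.1-fold higher in adult than in fetal KO liver (adjusted p = 4.2e-09, limma), and at least 52.0-fold higher in adult than in fetal WT liver (adjusted p = 2.8e-09, limma). The Nr1d2 probe was well above background on all 8 arrays. Its levels were 2.50 and 2.67 on the KO adult arrays, against -2.37 and -2.30 on the KO fetal arrays, a rise of 4.92 ± 0.11 (30.3-fold). In WT liver they were 2.23 and 2.18 on the adult arrays, against -2.10 and -2.36 on the fetal arrays, a rise of 4.43 ± 0.11 (21.6-fold).

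Per1 and Per2 had smaller log2 rises. Per1 had levels of 4.11 and 4.24 on the KO adult arrays, against 2.34 and 2.39 on the KO fetal arrays, a rise of 1.81 ± 0.05 (3.50-fold). In WT liver Per1 had levels of 4.81 and 4.77 on the adult arrays, against 2.30 and 2.31 on the fetal arrays, a rise of 2.49 ± 0.05 (5.61-fold). Per2 rose by 1.67 ± 0.14 in KO (3.19-fold) and by 1.35 ± 0.14 in WT (2.56-fold). The WT call of Per2 was lost with normexp (0.98) and when arrays were scaled to their median (0.66) or to detected probes (0.93). Per3 was well above background at neither stage in KO liver, so no size is given there. In WT liver it was at least 5.03-fold higher in adult than in fetal samples.

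The activators parted ways. Clock had levels of 1.10 and 1.20 on the KO adult arrays, against -0.99 and -1.05 on the KO fetal arrays, a rise of 2.17 ± 0.11 (4.49-fold; adjusted p = 6e-07, limma). In WT liver Clock had levels of 1.28 and 1.26 on the adult arrays, against -0.999 and -0.67 on the fetal arrays, a rise of 2.10 ± 0.11 (4.30-fold; adjusted p = 7e-07, limma). Arntl, in contrast, was called in neither genotype. Its levels were 0.59 and 0.54 on the KO adult arrays, against 0.41 and 0.43 on the KO fetal arrays, a difference of 0.14 ± 0.06 (adjusted p = 0.048, limma). This KO difference changed sign when arrays were scaled to their median (-0.39) or to detected probes (-0.12). In WT liver Arntl had levels of 0.07 and 0.05 on the adult arrays, against 0.69 and 0.65 on the fetal arrays, a difference of -0.61 ± 0.06 (adjusted p = 2.2e-05, limma). Under the same scalings Arntl was called lower in adult WT (-1.31 and -1.03), so that 8 probes were then higher and 1 lower. In order of level, Arntl was lowest in WT adult, then KO fetal, KO adult and WT fetal liver, and no neighbouring pair of groups overlapped between arrays.

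**Figure D3:**
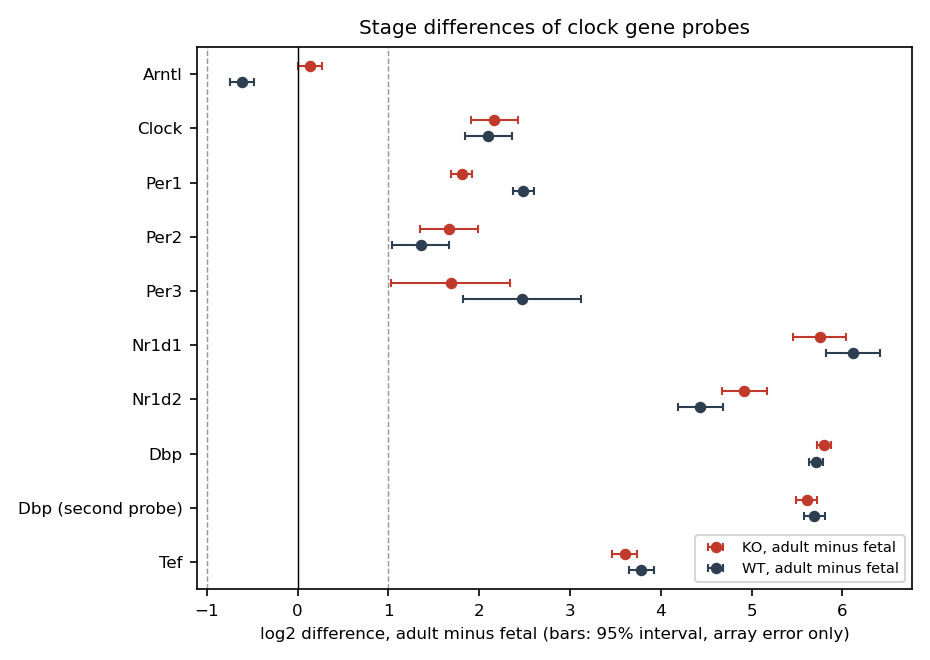
Log2 difference, adult minus fetal (x axis), of the 10 tested clock gene probes (y axis) in KO and in WT liver; bars are 95% intervals from limma that cover array error only, and dashed lines mark 2-fold. Dbp, Nr1d1 and Nr1d2 lie above 4, and Arntl lies at 0.14 in KO and -0.61 in WT. The fetal signals of Nr1d1 and Per3, and the KO adult signals of Per3, were not well above background. The points of Nr1d1 and Per3 therefore do not give sizes.

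Markers of several cell types changed along with stage. The median adult minus fetal difference of the 8 hepatocyte markers was 11.4 in KO and 11.3 in WT. That of the 6 erythroid markers was -6.07 in KO and -5.74 in WT. For the 9 clock genes tested it was 2.17 in KO and 2.49 in WT, and for all probes 0.05 in KO and 0.12 in WT. Of the 8 macrophage and Kupffer cell markers, 7 were called higher in adult than in fetal KO liver and 0 lower (median 1.38), whereas in WT liver 1 was called higher and 6 lower (median -1.83). Of the 4 intestinal markers tested, 2 were called higher and 1 lower in KO, and 2 higher and 2 lower in WT. The shares of all probes were 24.6% higher and 24.9% lower in KO, and 28.4% higher and 24.1% lower in WT. The erythroid marker Epb42 was not well above background on any adult array. Of the 8 hepatocyte markers, 3 were not well above background on either KO fetal array, and 2 were not on the second WT fetal array. The hepatocyte medians thus rest in part on signals that were not detected. The smallest hepatocyte difference was 1.61 in KO and 1.57 in WT. The part of cell content in the clock gene values was not tested.

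The other clock genes followed were 15 in a list. All 15 had a probe and 10 were tested. Cry1, the partner of the Per proteins, was well above background on 1 of the 8 arrays and was not tested. Rorb, Bhlhe41, Arntl2 and Fbxl21 were not tested either.

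Between the adult genotypes 0 of these 10 genes were called in limma, where 6.95% of all probes were. An unadjusted p under 0.05 was reached by 8 of the 10 and by 15030 of all 28819 probes. The median of the 10 genes was -0.18, against -0.12 for all probes. Hlf, which encodes the third D-box factor, had levels of 2.70 and 2.80 on the KO adult arrays, against 3.49 and 3.39 on the WT adult arrays. The KO arrays were the lower ones, by 0.69 ± 0.07 (adjusted p = 0.00014, limma). Bhlhe40, which encodes an E-box repressor (Dec1), had levels of 3.10 and 3.07 on the KO adult arrays, against 2.66 and 2.61 on the WT adult arrays. The KO arrays were the higher ones for Bhlhe40, by 0.46 ± 0.05 (adjusted p = 0.00017, limma). Cry2 differed by -0.30 ± 0.04 and Ciart, which encodes a repressor of the activator pair, by -0.58 ± 0.19. These 4 genes were chosen for their roles in the loop after their values were seen.

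Between the fetal genotypes, where 1.53% of all probes were called, 1 of the 10 was, Ciart, lower in KO. Its probe was not well above background on any fetal array, so no size is given. Its call was lost with normexp, with quantile normalization, in the authors' value table and when the adult arrays were left out of the fit.

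Between adult and fetal KO liver 6 of the 10 were called higher and 2 lower, with a median of 2.09. There, 24.6% of all probes were called higher and 24.9% lower. In WT liver 6 were called higher and 3 lower, with a median of 2.34, where 28.4% of all probes were called higher and 24.1% lower. The counts of lower calls were near these shares, so little can be read from them. Ciart was at least 25.6-fold higher in adult KO and at least 51.9-fold higher in adult WT. Rora, whose protein activates through the ROR element, rose by 4.77 ± 0.17 in KO and 4.30 ± 0.17 in WT. Bhlhe40 rose by 3.68 ± 0.05 in KO and 2.87 ± 0.05 in WT. Hlf rose by 2.51 ± 0.07 in KO and 3.31 ± 0.07 in WT. Nfil3, which encodes a D-box repressor, rose by 2.21 ± 0.04 in KO and 2.32 ± 0.04 in WT, and Cry2 by 1.98 ± 0.04 in KO and 2.37 ± 0.04 in WT. These 6 genes were thus called higher in the adult samples of either genotype. Ciart entered the test through adult arrays alone, so a rise was the one direction it could take.

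The genes that fell were Timeless, Btrc and Csnk1e. Timeless, known in mammals for a part in DNA replication, fell by 3.82 ± 0.05 in KO and by 3.65 ± 0.05 in WT. Btrc, which encodes part of a ubiquitin ligase, was at least 8.12-fold lower in adult than in fetal KO. In WT it fell by 2.27 ± 0.10, with 1 of the 2 adult arrays well above background. This Btrc probe entered the test through fetal arrays alone. A second Btrc probe gave -0.95 ± 0.19 in KO and -0.32 ± 0.19 in WT, neither called. Csnk1e, which encodes a casein kinase, differed by -0.93 ± 0.09 in KO and fell by 1.35 ± 0.09 in WT. Its second probe fell by 1.46 ± 0.06 in KO, where it was called, and by 1.47 ± 0.06 in WT. For Csnk1d, the related kinase, the brighter probe gave 0.37 ± 0.03 in WT and the other probe -1.35 ± 0.13, so its direction is uncertain.

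**Figure D4:**
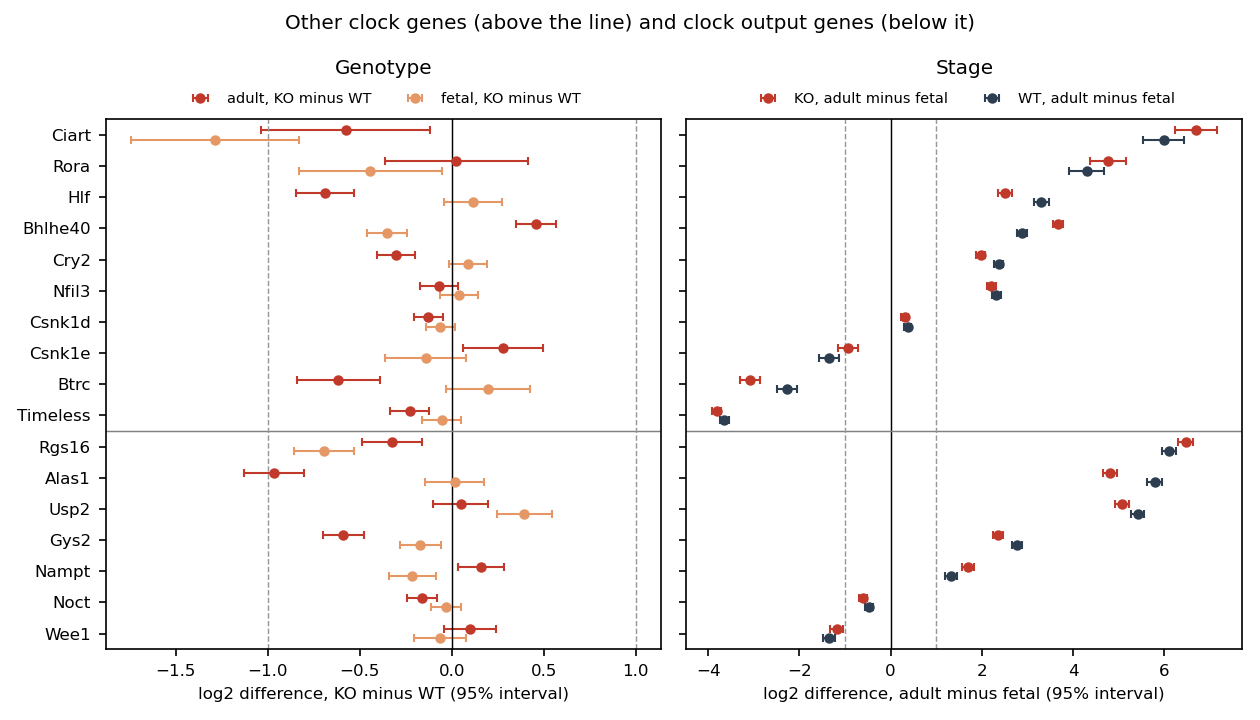
Log2 differences (x axes) of 10 other clock genes and 7 clock output genes (y axis, brightest probe of each), KO minus WT in the left panel and adult minus fetal in the right panel; bars are 95% intervals from limma that cover array error only, and dashed lines mark 2-fold. In the left panel only Ciart in fetal liver passes 2-fold, while in the right panel most genes lie outside the dashed lines. The fetal signals of Ciart and the KO adult signals of Btrc were not well above background.

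Genes that the clock is known to drive in mouse liver were followed in a list of 7. Between the adult genotypes 0 of the 7 were called in limma, where 6.95% of all probes were, and the median of the 7 was -0.16. An unadjusted p under 0.05 was reached by 5 of the 7 and by 15030 of all 28819 probes. The nearest to a call was Alas1, which encodes the first enzyme of haem synthesis in liver. Its levels were 8.82 and 8.59 on the KO adult arrays, against 9.68 and 9.66 on the WT adult arrays. The KO arrays were lower by 0.97 ± 0.07 (adjusted p = 3.2e-05, limma), and by 1.11 ± 0.09 on the gene's second probe, which was called. Without the first KO adult array the brighter probe was called as well. Gys2, liver glycogen synthase, differed by -0.59 ± 0.05.

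Between the fetal genotypes 0 of the 7 were called in limma, where 1.53% of all probes were. An unadjusted p under 0.05 was reached by 4 of the 7 and by 8495 of all 28819 probes. Between adult and fetal liver 5 of the 7 were called higher and 1 lower in each genotype. Of all probes, 24.6% were called higher and 24.9% lower in KO, and 28.4% higher and 24.1% lower in WT. Rgs16, which encodes a regulator of G protein signalling, rose by 6.47 ± 0.07 in KO and 6.11 ± 0.07 in WT. Usp2, which encodes a deubiquitinase, rose by 5.07 ± 0.06 in KO and 5.42 ± 0.06 in WT. Alas1 rose by 4.81 ± 0.07 in KO and 5.79 ± 0.07 in WT, and Gys2 by 2.35 ± 0.05 in KO and 2.77 ± 0.05 in WT. Nampt, which encodes an enzyme of NAD synthesis, rose by 1.70 ± 0.05 in KO and 1.33 ± 0.05 in WT. Wee1, which encodes a kinase that delays mitosis, fell by 1.19 ± 0.06 in KO and by 1.35 ± 0.06 in WT.

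For Arntl and Nr1d1, the genes of nearest pattern were found by the Euclidean distance between the 4 group means, each centred on its own mean. This describes 4 RNA samples and carries no test. Nearest to Arntl among 10607 other genes well above background on all arrays were Rab28 (distance 0.05), Rras2 (0.07), Kdm4c (0.07), Gpaa1 (0.08) and Colec10 (0.08). Nearest to Nr1d1 among 10608 genes were Rarres2 (0.03), Retreg1 (0.19), Prodh (0.28), Aldh1l1 (0.30) and Zbtb16 (0.35). The pattern of Nr1d1 rests on fetal signals that were not well above background.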

How the data were processed

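Liver RNA (200 ng per sample) was amplified and Cy3-labelled (Agilent's Low Input kit), per the labels' protocols. The authors' scanner files hold intensity values on a linear scale with spot flags, from Agilent Feature Extraction 10.7.3.1 per the file headers. The authors' value table, a linear intensity made by steps that the sources used here do not give, had the same median (18.1) in every column and correlated with the scanner signal at r of 0.995 to 0.999 on the log2 scale. It served as an alternative.

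Control spots were left out, spots with an outlier flag were set to missing, and log2 processed signals of the spots of a probe were averaged and scaled to the array's 75th percentile over 55681 probes. Accessions were named through RefSeq's GRCm38.p6 gene table (26762 probes). The 4 groups were fitted together with limma 3.58.1 (lmFit, eBayes with intensity trend) in R 4.3.3, on single probes because every probe of a member is shown. The fit was tested on simulated data. For a gene of the lists the brightest tested probe stood for it. A bound ("at least") sets the brighter group's mean against the higher of the dim probe's own signal and the lowest signal well above background on each array. Some probes above that lowest signal were not well above background, so a bound is not strict. Of the genes first listed, 3 are not reported here. The members and lists were chosen with earlier results of these data known. Named were all members, called genes of the lists, up to 6 each way, and 5 nearest patterns for each of 2 anchor genes. The number of arrays, 2 per RNA sample, limits the precision. Alternatives were background correction (normexp, on the median signals that the files hold), scaling, filters, the probe chosen, the variance model, the arrays in the fit, a slide-row block and leaving out each array.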

Additional observations from a re-analysis of the deposited data

Results flagged for a closer look

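The interaction test asked whether the genotype difference (KO minus WT) differed between adult and fetal liver. The genes tested were 9 clock genes, 10 other clock genes and 7 clock output genes. Of these, 13 had an adjusted p under 0.05 in limma. Each value is the adult difference minus the fetal one, on the log2 scale. On the brightest probe none of the 13 reached 2-fold, and 42.4% of all probes passed the same adjusted p. Little can thus be read from the count.

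Among the members the values were 0.76 for Arntl, -0.68 for Per1 and 0.49 for Nr1d2. Among the other clock genes they were 0.81 for Bhlhe40, 0.42 for Csnk1e, -0.39 for Cry2, -0.80 for Hlf and -0.81 for Btrc. Among the output genes they were 0.37 for Nampt, 0.37 for Rgs16, -0.35 for Usp2, -0.42 for Gys2 and -0.98 for Alas1. The second probe of Alas1 gave -1.22, past 2-fold. The second probe of Csnk1e (0.01) did not pass the adjusted p, nor did that of Btrc (-0.62), whose brighter probe was not well above background on the KO adult arrays.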

How the results depend on the processing

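The counts of called clock gene probes under the 20 alternatives were 0 or 1 between adult genotypes, 0 between fetal genotypes, 0 for the interaction, 7 to 9 between adult and fetal KO and 7 to 10 between adult and fetal WT. The fit with the slide row as a replicate block gave 0, 0, 0, 9 and 9 in that order. The labels give no replicate numbers, and deviations of arrays of the same row correlated at -0.15 to 0.06, so the block was no pairing. The number of clock gene probes tested was not the same in all alternatives. With only probes above background on all arrays, 8 were left, of which 7 were called in each stage comparison. The fit without a filter also held Npas2, which was well above background on no array. The whole-array counts with normexp were 561 (adult genotypes, against 2004 in the main setting), 92 (fetal, 440), 820 (interaction, 2753), 9370 (stage in KO, 14280) and 10732 (stage in WT, 15144). With only probes above background on all arrays they were 841, 49, 1355, 8754 and 9310, and with 1 probe per gene 1093, 273, 1418, 7783 and 8025. Without a filter the stage counts were 28190 in KO and 31675 in WT. The fetal count was 836 at 2-fold with no test and 229 to 489 with 1 array left out, and the interaction count 1828 with median scaling. Of the called probes, 56.3% were higher in adult KO than WT, 53.2% in the interaction, 49.7% in adult than fetal KO and 54.1% in adult than fetal WT. With median scaling these shares were 71.9%, 71.6%, 30.7% and 29.3%, and the medians of all probes were 0.077, 0.027, -0.49 and -0.58.

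Between fetal genotypes the other clock genes had 0 calls, where the main setting had 1, with normexp, with quantile normalization, in the value table, with only probes above background on all arrays and with only the arrays compared. Leaving out 1 array gave 0 to 1 called members between adult genotypes (1, Per3, without the second KO adult array), and 0 to 1 called output genes there (without the first KO adult array) and in the interaction (without the first KO adult or the second KO fetal array).

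Small differences changed sign. Under the other background correction, the other scalings and the value table, the adjusted p in limma was then above 0.05. In the main setting it was under 0.05 for the brighter Dbp probe and Tef between adult genotypes. The same held for Arntl between adult and fetal KO. Between adult genotypes, Clock became 0.077 with median scaling and 0.016 with detected-probe scaling. With median scaling the brighter Dbp probe became 0.0099 and Tef 0.019. Between fetal genotypes, normexp gave -0.028 for Per1, 0.15 for Per3, 0.022 for Nr1d2 and -0.088 for Tef. Per3 became 0.097 with quantile normalization, 0.097 in the value table and 0.0037 with median scaling. The fetal signals of Per3 were not well above background, so its fetal values here are not sizes. Tef became -0.025 with quantile normalization, -0.020 with detected-probe scaling and -0.0241 in the value table. In the interaction, Clock became -0.055 with normexp. The second Dbp probe became 0.085 with quantile normalization, 0.076 with median scaling, 0.077 with detected-probe scaling and 0.085 in the value table, and Tef 0.011 with quantile normalization and 0.010 in the value table. Between adult and fetal KO, Arntl became -0.39 with median scaling and -0.12 with detected-probe scaling. Leaving out 1 array gave -0.019 to 0.27 for Per2 and -0.037 to 0.11 for Nr1d1 between adult genotypes, -0.18 to 0.11 for Per3, -0.24 to 0.021 for Nr1d2 and -0.045 to 0.047 for Tef between fetal genotypes, and -0.10 to 0.23 for Clock in the interaction. The causes were not tested.

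Signals near background limit Npas2, Cry1, Rorb, Bhlhe41, Arntl2 and Fbxl21. They also limit Per3 in every group but WT adult, Nr1d1 and Ciart in fetal liver, and the brighter Btrc probe in adult liver.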
